A study of Mus musculus with 19 samples.

Results

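The interferon-inducible GTPase genes followed here in bulk RNA-seq libraries of mouse bone marrow monocytes were 4 guanylate-binding proteins (Gbp2, Gbp3, Gbp5 and Gbp7) and 5 immunity-related GTPases (Irgm1, Irgm2, Igtp, Iigp1 and Tgtp1). They were chosen by name from the 50854 genes of the count table, and each of the 9 had a row there and was among the 18652 genes tested. The study compared monocytes that express the chemokine receptors CCR1 and CCR2 together (CCR1/2+ve) with those that express CCR2 alone (CCR2+ve), at rest and under inflammation. The 19 libraries used were 4 of resting CCR1/2+ve, 4 of resting CCR2+ve, 3 of inflamed CCR1/2+ve and 4 of inflamed CCR2+ve monocytes, and 4 that are labelled inflamed CCR1. Between 22268658 and 30502009 reads were counted on genes per library.

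All groups came from female REP mice of 8 to 12 wk, in which a fluorescent reporter protein marks each of the inflammatory chemokine receptors, so that a population is defined by reporter and not by the surface protein. Monocytes were sorted from bone marrow. The paper's text gives the gate CD11b+, Ly6C high, Ly6G- and SiglecF- for the monocytes it cultured and for its single-cell RNA-seq. For the bulk libraries it refers to a supplementary table, and it does not describe the libraries labelled inflamed CCR1. Inflamed mice had carried a s.c. osmotic pump for 7 d that released IL-3, IL-6, GM-CSF and IFN-α, so that a type I interferon was part of the treatment. Whether the resting mice carried vehicle pumps, and whether each library came from a separate animal, is not given in the sources used here, so p values measure the spread between libraries. In bulk RNA, fewer cells of a type and less RNA per cell cannot be told apart.

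The labelled cell type was checked on 9 monocyte markers. All 9 had a mean of at least 10 counts per 1000000 reads on genes, scaled with TMM factors (CPM), in the 4 groups with both resting and inflamed monocytes, and 6 of 9 in the libraries labelled inflamed CCR1. In these 4 libraries the median level of Ccr2 was 4.82 CPM, of Csf1r 16.5 CPM and of Ctss 14.2 CPM, against 1280, 1446 and 3232 CPM in inflamed CCR2+ve monocytes. Other markers of the list were nearer, with medians of 1415 and 2039 CPM for Ly6c2, 93.9 and 113 CPM for Itgam and 24.3 and 37.3 CPM for Spi1, and 6 of the 9 were lower at both of the cutoffs given below. The summed level of 9 neutrophil markers in the libraries labelled inflamed CCR1 was 92192 to 135843 CPM, against 390 to 2309 CPM in the other 15 libraries. It was mainly Ngp, Camp and Ltf, while Mmp8 was lower there, at 5.17 to 12.2 CPM. Of the 9 neutrophil markers, 8 were higher and 1 lower at both cutoffs against inflamed CCR2+ve monocytes. Against inflamed CCR1/2+ve monocytes 6 were higher and 1 lower. On the 6 monocyte markers and on most neutrophil markers the libraries labelled inflamed CCR1 go against the monocyte label. They are described apart from the others.

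Guanylate-binding proteins (GBPs) and immunity-related GTPases (IRGs) are large GTPases that cells make when interferon binds its receptors. They gather on the vacuoles and membranes of intracellular bacteria and parasites, where they break the vacuole, recruit autophagy proteins and help to assemble inflammasomes. In monocytes and macrophages they belong to cell-autonomous defence. Of the IRGs, Irgm1, Irgm2 and Igtp (Irgm3) are regulators that sit on the membranes of the cell itself and hold the effector IRGs, Iigp1 (Irga6) and Tgtp1 (Irgb6) among them, in an inactive state.

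The 4 GBP genes lie near each other on chromosome 3 of GRCm38, all on the forward strand. Gbp5 (ENSMUSG00000105504) spans 142493978 to 142522344, Gbp7 (ENSMUSG00000040253) 142530342 to 142550149, Gbp3 (ENSMUSG00000028268) 142560026 to 142573209 and Gbp2 (ENSMUSG00000028270) 142620602 to 142638008. Of the IRG genes, 4 lie on chromosome 11. Irgm1 (ENSMUSG00000046879, 48861968 to 48871683) and Tgtp1 (ENSMUSG00000078922, 48985327 to 48994172) are on the reverse strand, and Igtp (ENSMUSG00000078853, 58199556 to 58207591) and Irgm2 (ENSMUSG00000069874, 58199618 to 58222782) overlap each other on the forward strand.

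Interferons reach these genes through short promoter elements, and the promoters are shown because they carry the feature that the members share. An interferon-stimulated response element (ISRE), bound by factors of the IRF family among others, was searched as its core GAAANNGAAA or, on the other strand, TTTCNNTTTC. A gamma-activated site (GAS), an element of the response to interferon-γ, was searched as TTCNNNGAA, which reads the same on both strands. RefSeq windows of GRCm38.p6 that run from 250 bases before to 50 bases after a start were found for 8 of the 9 members, all but Iigp1, and they were searched over their whole length. The lines below give, 5′ to 3′ on the strand of the gene, the bases just before the start, with the matched motifs in capitals.
Gbp2, chr3:142620543-142620662: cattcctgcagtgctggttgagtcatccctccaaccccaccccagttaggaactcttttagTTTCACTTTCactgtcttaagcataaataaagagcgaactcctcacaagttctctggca
Gbp3, chr3:142559924-142560043: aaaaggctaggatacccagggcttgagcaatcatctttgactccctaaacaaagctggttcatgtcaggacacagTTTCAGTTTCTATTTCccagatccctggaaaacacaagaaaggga
Gbp5, chr3:142496684-142496933: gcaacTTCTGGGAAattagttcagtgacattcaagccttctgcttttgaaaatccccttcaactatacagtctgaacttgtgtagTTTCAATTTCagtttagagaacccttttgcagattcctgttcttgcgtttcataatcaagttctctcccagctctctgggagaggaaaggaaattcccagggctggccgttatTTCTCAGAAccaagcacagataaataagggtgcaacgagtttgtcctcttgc
Gbp7, chr3:142530216-142530335: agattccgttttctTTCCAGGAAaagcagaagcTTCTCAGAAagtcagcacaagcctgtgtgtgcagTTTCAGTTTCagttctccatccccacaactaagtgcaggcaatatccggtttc
Irgm1, chr11:48871421-48871540: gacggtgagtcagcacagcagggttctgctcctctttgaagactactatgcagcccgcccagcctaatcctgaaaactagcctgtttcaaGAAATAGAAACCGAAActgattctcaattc
Irgm2, chr11:58214857-58214976: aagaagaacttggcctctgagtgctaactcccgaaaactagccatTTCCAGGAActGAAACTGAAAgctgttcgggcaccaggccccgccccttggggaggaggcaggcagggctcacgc
Igtp, chr11:58199436-58199555: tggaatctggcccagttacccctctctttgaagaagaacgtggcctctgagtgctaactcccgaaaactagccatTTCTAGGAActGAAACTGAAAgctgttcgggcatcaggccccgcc
Tgtp1, chr11:48992247-48992366: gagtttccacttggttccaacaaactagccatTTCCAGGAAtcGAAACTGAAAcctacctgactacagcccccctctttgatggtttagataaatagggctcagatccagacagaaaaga

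An ISRE core was present before the start in all 8 members, against 3.44% of 32851 promoter windows of the same length. Its first base lay 24 to 77 bases before the start in 7 of them and 165 bases before it in Gbp5. Gbp3 and Irgm1 each had a pair of ISRE cores that overlap. GAS motifs were present in 5 members, against 8.30% of all windows, with 2 matches each in Gbp5 and Gbp7 and 1 each in Irgm2, Igtp and Tgtp1. In the last 3 genes the GAS ended just upstream of the ISRE core, with first bases 75 and 64 bases before the start in Irgm2, 45 and 34 in Igtp, and 88 and 77 in Tgtp1. The stretches of Irgm2 and Igtp are nearly the same around these motifs. The windows of Gbp5, Irgm1, Irgm2 and Tgtp1 lie inside the spans of these genes given above. The last bases of the Irgm2 window were not found in the transcripts of Irgm2. Both motifs together were found in 0.454% of all windows. Gbp3 has a second window, for a start farther downstream, that held neither motif. A match is a run of letters and was not tested for binding.

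**Figure D1:**
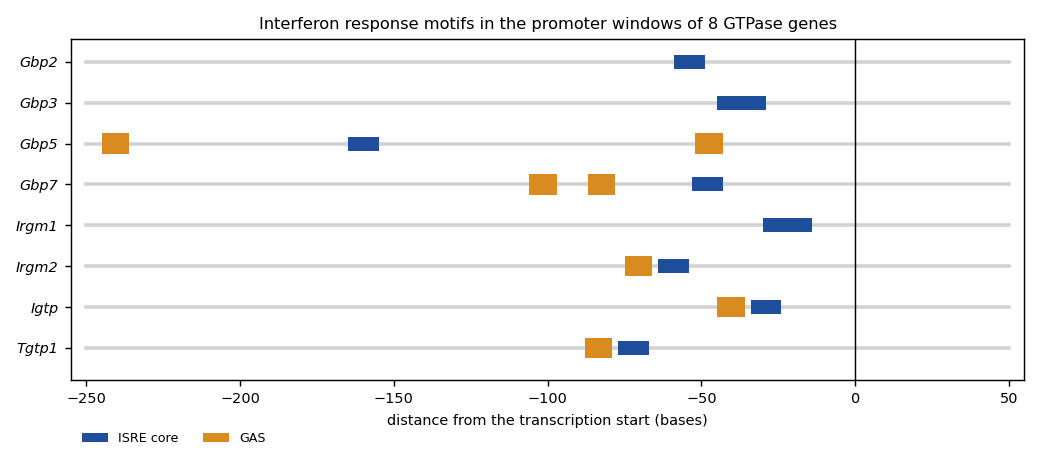
Position of the ISRE core (blue) and GAS (orange) matches in the promoter window of 8 members, as distance in bases from the transcription start (vertical line at 0); grey lines mark the window from 250 bases before to 50 bases after the start. A blue block stands within 77 bases of the start in each gene but Gbp5, where it is at 165 bases, and the longer blocks of Gbp3 and Irgm1 are pairs of overlapping cores.

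Levels between genes were compared as CPM per kb of exon. At rest, Igtp had the highest level of the 9 genes in both populations, at 27.8 ± 3.34 CPM per kb (SD, n = 4) in CCR1/2+ve and 54.2 ± 9.48 (SD, n = 4) in CCR2+ve monocytes. Gbp3, Gbp2 and Irgm1 followed at 17.3 to 22.8 CPM per kb in CCR1/2+ve and at 39.7 to 40.2 in CCR2+ve monocytes, where these 3 neighbours did not keep one order across libraries. Iigp1 and Gbp5 were at 0.640 to 1.71 CPM per kb and also changed places between libraries. Tgtp1 was lowest, at 0.141 ± 0.0481 and 0.731 ± 0.453 CPM per kb (SD, n = 4 each).

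The order of the genes differed in inflamed monocytes. Igtp was again first, at 126 ± 65.0 CPM per kb (SD, n = 3) in CCR1/2+ve and 112 ± 53.0 (SD, n = 4) in CCR2+ve monocytes. Gbp7 stood at 86.8 ± 21.3 and 72.8 ± 23.2 CPM per kb, where at rest it had been at 14.0 ± 3.24 and 22.5 ± 5.12, below Irgm1 in each of the resting groups. Irgm1 was at 26.2 ± 12.5 and 29.5 ± 11.4 CPM per kb, below Gbp7 and Irgm2 in every inflamed library of both populations. Tgtp1 remained lowest. Its level is uncertain, since 73.2% of its 100-base windows also occur in other genes, mainly its near copy Tgtp2, and reads that aligned to more than 1 place were not counted. Tgtp1 had 6 to 105 reads per library, and 1.04 to 19.7% of the reads on Tgtp1 and Tgtp2 together. Exons of Gm43802 overlap 11.4% of the exonic bases of Gbp7 on the same strand, and Irgm2 and Igtp share 4.39% and 8.01% of theirs.

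**Figure D2:**
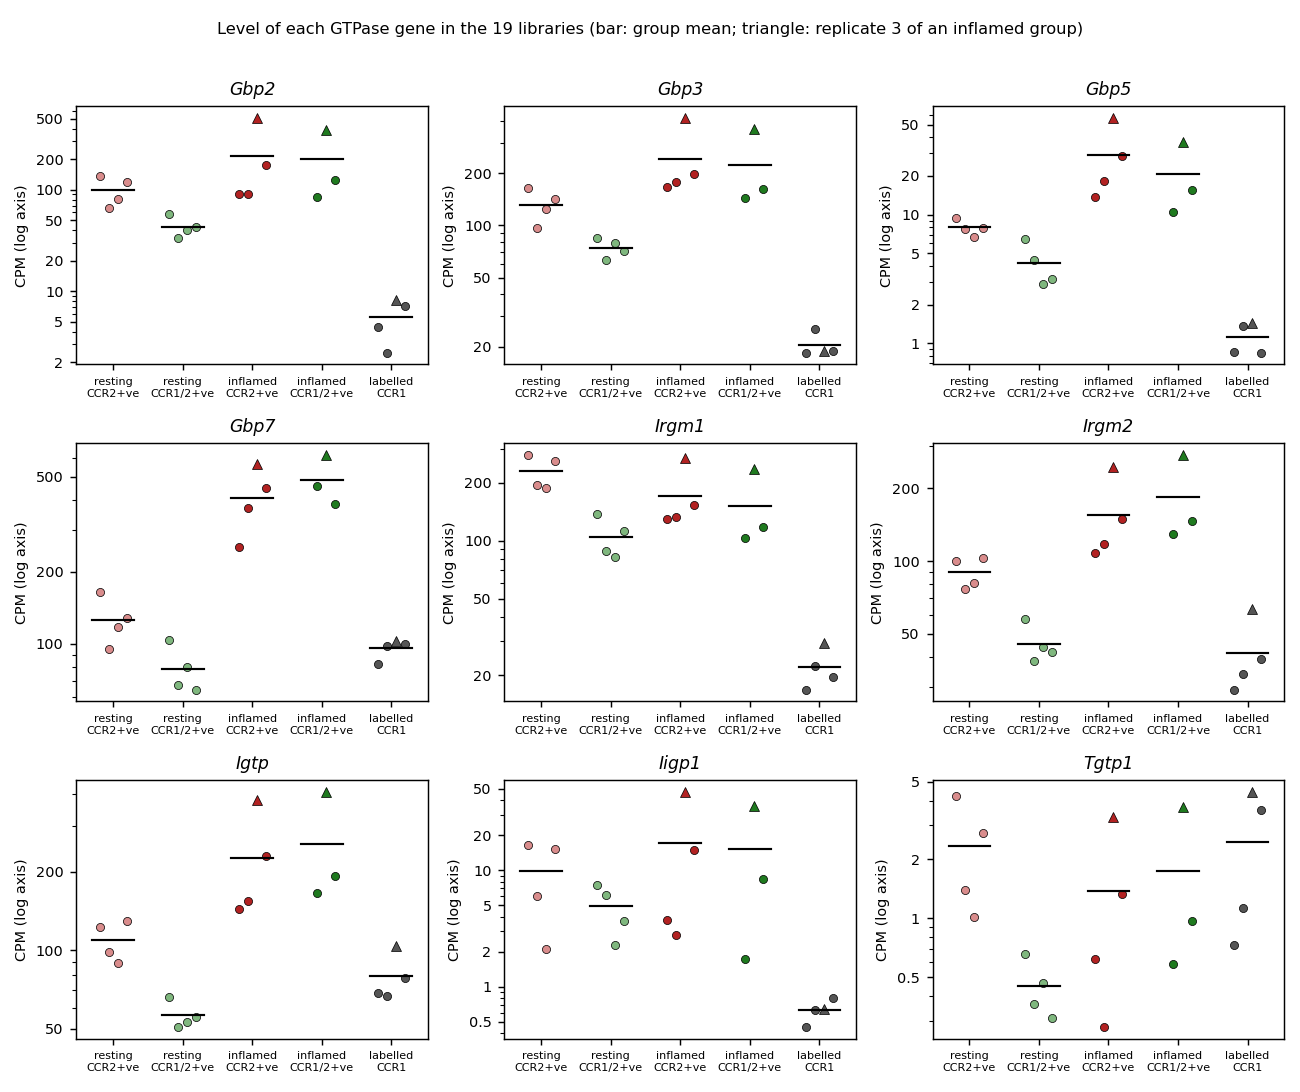
Level of each of the 9 genes in CPM (log axis) in the 19 libraries, by group; points are libraries, bars are group means, and triangles mark replicate 3 of each inflamed group. Resting CCR1/2+ve libraries lie below resting CCR2+ve libraries for most genes, and the triangles top both groups of inflamed monocytes in all 9 panels.

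The first comparison asked how the resting populations differ. All 9 genes were lower in CCR1/2+ve than in CCR2+ve monocytes. Their median log2 fold change was -0.91, where the median over all genes was 0.03. At an adjusted p below 0.05 (quasi-likelihood test of edgeR, Benjamini-Hochberg adjustment over the 18652 genes), 8 of the 9 were lower, against 8.44% of all genes, and Iigp1 was the exception. With the study's second cutoff, a log2 fold change of 1 or more in either direction, Gbp2, Irgm1 and Tgtp1 were downregulated, against 1.90% of all genes. The 4 libraries of each population did not overlap for 7 members, against 12.2% of all genes with CCR1/2+ve below CCR2+ve.

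Gbp2, a GBP that coats pathogen vacuoles, was at 57.8, 33.3, 39.8 and 42.8 CPM in replicates 1 to 4 of resting CCR1/2+ve monocytes and at 136, 66.0, 80.3 and 120.2 CPM in those of resting CCR2+ve monocytes. The highest CCR1/2+ve library and the lowest CCR2+ve library were close, but the groups did not overlap. The log2 fold change was -1.13 (standard error 0.24, edgeR adjusted p = 0.00919). Gbp3 was at 74.6 ± 9.52 and 131 ± 28.6 CPM (SD, n = 4 each), which gave a log2 fold change of -0.74 (standard error 0.14, edgeR adjusted p = 0.00358), and every CCR2+ve library was above every CCR1/2+ve library. Gbp5, which promotes assembly of the NLRP3 inflammasome, was a low gene in both populations, at 2.90 to 6.42 and 6.76 to 9.47 CPM. Its log2 fold change was -0.82 (standard error 0.25, edgeR adjusted p = 0.0389). Gbp7, which has been tied to the delivery of NADPH oxidase and autophagy proteins to vacuoles, was at 104, 67.1, 79.8 and 64.3 CPM in CCR1/2+ve and at 164, 94.98, 118 and 128 CPM in CCR2+ve monocytes. The highest CCR1/2+ve library was above the lowest CCR2+ve library, and its log2 fold change was the smallest of the 9, at -0.60 (standard error 0.18, edgeR adjusted p = 0.0384).

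The 3 regulatory IRGs differed by similar amounts. Irgm1, needed for resistance to mycobacteria, was at 137, 87.8, 82.0 and 112 CPM in CCR1/2+ve and at 279, 195, 188 and 260.3 CPM in CCR2+ve monocytes. No CCR1/2+ve library reached the lowest CCR2+ve library, and the log2 fold change was -1.06 (standard error 0.17, edgeR adjusted p = 0.00152). Irgm2 was at 45.5 ± 8.25 and 90.1 ± 13.4 CPM (SD, n = 4 each), and its log2 fold change was -0.91 (standard error 0.13, edgeR adjusted p = 0.000633). For Igtp the levels were 56.2 ± 6.75 and 109.7 ± 19.2 CPM (SD, n = 4 each), and the log2 fold change was -0.89 (standard error 0.13, edgeR adjusted p = 0.000510). In both genes the populations were apart without overlap, though under the fold cutoff.

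The effector IRGs were low and uneven. Iigp1 (ENSMUSG00000054072), which lies apart from the others on chromosome 18 from 60376027 to 60392634 on the forward strand, was at 7.48, 6.16, 2.27 and 3.70 CPM in CCR1/2+ve and at 16.4, 5.99, 2.11 and 15.4 CPM in CCR2+ve monocytes, so the populations overlapped over most of their range (log2 fold change -0.93, standard error 0.62, edgeR adjusted p = 0.373). Tgtp1 was at 0.659, 0.366, 0.470 and 0.308 CPM in CCR1/2+ve and at 4.21, 1.40, 1.02 and 2.74 CPM in CCR2+ve monocytes. It had the largest log2 fold change of the 9, -2.29 (standard error 0.47, edgeR adjusted p = 0.00520), on 10 to 20 and 26 to 105 reads per library.

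With single libraries left out, the calls of Gbp2 and Irgm1 rested on the fold cutoff. Gbp2 also missed the edgeR adjusted p without a filter (0.0520) and with all 19 libraries in one fit (0.199). Without replicate 1 of resting CCR2+ve monocytes 1 member was called as lower, against 265 of 18652 genes, with Gbp2 at -0.93 and Irgm1 at -0.93. Without replicate 1 of resting CCR1/2+ve monocytes 5 were, against 362 of 18652 genes, with Gbp5 at -1.10 and Irgm2 at -1.05. Irgm1 was also under the fold cutoff without replicate 2 or 3 of resting CCR1/2+ve monocytes, at -0.99 and -0.95. Among fits with 1 library left out, Gbp5 and Gbp7 were the least secure of the 8. The edgeR adjusted p was 0.0519 to 0.136 for Gbp5 when any of 7 of the 8 libraries was left out. For Gbp7 it was 0.0603 to 0.125 when any of 6 was.

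Marker genes of the sorted cells moved with this comparison too. The summed level of the 9 monocyte markers was 27292 to 39324 CPM in resting CCR1/2+ve and 41882 to 47237 CPM in resting CCR2+ve monocytes. Of the 9, 7 were lower at an adjusted p below 0.05 by edgeR, against 8.44% of all genes, and the median log2 fold change was -0.72. Markers of dendritic cells also differed in this direction, with a summed level of 7 conventional dendritic cell genes of 33.5 to 116 CPM in CCR1/2+ve and 216 to 594 CPM in CCR2+ve monocytes. Flt3, Cd209a, H2-Ab1 and Clec9a were lower at both cutoffs, against 1.90% of all genes. The defining markers Clec9a, Xcr1 and Zbtb46 were at or below 2.09 CPM in every resting library. The summed level of 5 plasmacytoid dendritic cell genes was 111 to 159 and 217 to 304 CPM. In each population 2 of these 5 had a mean of at least 10 CPM. Of the 5, 2 were lower at both cutoffs, against 1.90% of all genes. Tissue macrophage markers differed in both directions, and 5 of 8 were higher in CCR1/2+ve monocytes at both cutoffs, against 2.34% of all genes, with Vcam1 at 26.2 ± 15.0 and 1.69 ± 1.12 CPM and C1qc at 10.7 ± 6.08 and 2.30 ± 1.27 CPM (SD, n = 4 each). Siglec1 was lower at both cutoffs, and the list sum was 205 to 278 and 261 to 366 CPM. Nkg7, a gene of cytotoxic cells, was higher too, at 48.4 ± 23.6 and 8.35 ± 2.95 CPM, while the T cell genes Cd3d, Cd3e and Cd3g did not pass the test. Of the 6 T and NK cell genes listed, Nkg7 was the 1 called as higher, and 2 were lower at both cutoffs. The median log2 fold change over that list was -1.36. The part of any of these in the difference of the GTPase genes was not tested.

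**Figure D3:**
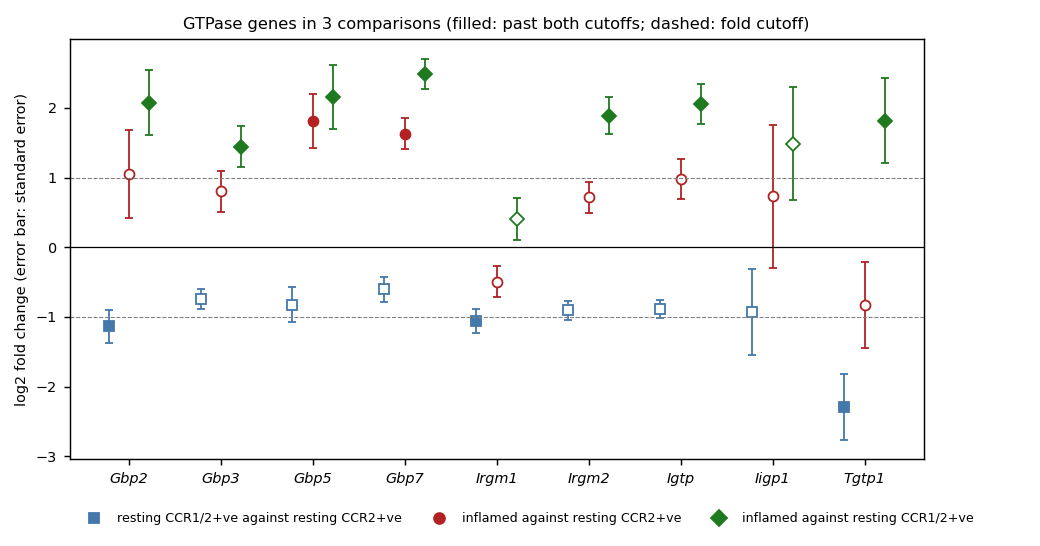
Log2 fold change of each member in the comparison of the resting populations (squares) and in inflamed against resting CCR2+ve (circles) and CCR1/2+ve (diamonds) monocytes; error bars are standard errors, filled symbols passed both cutoffs, and dashed lines mark the fold cutoff. All squares lie below 0, and all diamonds lie above 0.

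Inflammation was compared with rest within each population. In CCR2+ve monocytes 7 of the 9 genes were higher and 2 lower. The median of their log2 fold changes was 0.80, where that of all genes tested was -0.10. Gbp3, Gbp5, Gbp7, Irgm2 and Igtp rose at an edgeR adjusted p below 0.05, against 21.9% of all genes, and Gbp5 and Gbp7 passed both cutoffs, against 9.37%. These 5 were also the members whose libraries did not overlap, against 22.2% of all genes with inflamed above resting.

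Gbp5 was at 9.47, 7.75, 6.76 and 7.88 CPM in resting and at 13.8, 18.3, 56.7 and 28.6 CPM in inflamed CCR2+ve monocytes. Each inflamed library was above each resting one, replicate 3 by the most, and the log2 fold change was 1.81 (standard error 0.39, edgeR adjusted p = 0.00256). Gbp7 rose from 164, 94.98, 118 and 128 CPM to 254, 369.6, 564 and 447 CPM, by 1.63 on the log2 scale (standard error 0.23, edgeR adjusted p = 4.53e-05). All 4 inflamed libraries of Gbp7 stood well clear of the resting ones. Smaller rises were found for Igtp (0.98, standard error 0.28, edgeR adjusted p = 0.0150), Gbp3 (0.80, standard error 0.29, edgeR adjusted p = 0.0422) and Irgm2 (0.72, standard error 0.22, edgeR adjusted p = 0.0180), all values log2 fold changes. Igtp lay just under the fold cutoff. Without inflamed replicate 4, Igtp (adjusted p = 0.0736), Irgm2 (0.0690) and Gbp3 (0.0975) no longer passed, and Gbp3 also missed the threshold when inflamed replicate 3 or resting replicate 2, 3 or 4 was left out.

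The other 4 genes did not pass the test in CCR2+ve monocytes. Gbp2 was at 91.01, 91.5, 513 and 174 CPM in inflamed CCR2+ve monocytes, of which replicates 1 and 2 were within the resting range and replicates 3 and 4 above it (log2 fold change 1.05, standard error 0.63, edgeR adjusted p = 0.218). Irgm1 was at 129.8, 133, 269 and 153 CPM, of which 3 libraries were below all 4 resting libraries and replicate 3 was within their range (log2 fold change -0.50, standard error 0.22, edgeR adjusted p = 0.0866). Iigp1 was at 3.76, 2.79, 47.3 and 15.1 CPM (log2 fold change 0.73, standard error 1.03, edgeR adjusted p = 0.606) and Tgtp1 at 0.620, 0.279, 3.29 and 1.33 CPM (log2 fold change -0.83, standard error 0.62, edgeR adjusted p = 0.301). Both overlapped the resting libraries.

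In CCR1/2+ve monocytes all 9 genes were higher under inflammation. The median of their log2 fold changes was 1.89, where that of all genes tested was -0.25. Both cutoffs were passed by 7 members, all but Irgm1 and Iigp1, against 9.16% of all genes. For 6 members the groups did not overlap, against 24.4% of all genes with inflamed above resting. The comparisons of inflammation do not share libraries with each other, but each shares its resting group with the comparison of the resting populations.

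Gbp7 had the largest rise, from 104, 67.1, 79.8 and 64.3 CPM to 459, 618 and 384 CPM in replicates 2 to 4 of inflamed CCR1/2+ve monocytes. The lowest inflamed library was far above the highest resting library, and the log2 fold change was 2.49 (standard error 0.22, edgeR adjusted p = 1.35e-05). Gbp5 rose from 6.42, 4.49, 2.90 and 3.18 CPM to 10.5, 36.7 and 15.5 CPM (log2 fold change 2.16, standard error 0.46, edgeR adjusted p = 0.00397). Gbp2 was at 85.6, 389.8 and 124 CPM, with replicate 3 far above the other inflamed libraries and all of them above the resting ones (log2 fold change 2.08, standard error 0.47, edgeR adjusted p = 0.00576). Gbp3 was at 143, 358 and 162 CPM against 62.8 to 84.8 CPM at rest, and its log2 fold change was 1.44 (standard error 0.29, edgeR adjusted p = 0.00323).

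Of the regulators, Igtp rose from 66.0, 50.8, 52.8 and 55.4 CPM to 166, 406 and 194 CPM (log2 fold change 2.05, standard error 0.29, edgeR adjusted p = 0.000333). Irgm2 rose from 57.4, 38.5, 44.0 and 42.2 CPM to 129.5, 276 and 147 CPM (log2 fold change 1.89, standard error 0.27, edgeR adjusted p = 0.000330). In both genes the lowest inflamed library stood well above the highest resting one. Irgm1 did not follow them, at 103, 235 and 118 CPM against 82.0 to 137 CPM at rest, and 2 of its 3 inflamed libraries were within the resting range (log2 fold change 0.41, standard error 0.30, edgeR adjusted p = 0.309).

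Of the effectors, Tgtp1 was at 0.582, 3.70 and 0.966 CPM against 0.308 to 0.659 CPM at rest, and its groups overlapped (log2 fold change 1.81, standard error 0.61, edgeR adjusted p = 0.0302). Iigp1 was at 1.74, 35.5 and 8.48 CPM against 2.27 to 7.48 CPM at rest (log2 fold change 1.49, standard error 0.81, edgeR adjusted p = 0.171). Each of its 3 inflamed libraries thus had a different place, below, far above and just above the resting range. Without replicate 2 of the resting CCR1/2+ve monocytes, Gbp2 no longer passed (adjusted p = 0.0521), and Tgtp1 no longer passed without resting replicate 2, 3 or 4 (adjusted p = 0.0577 to 0.0722). Iigp1 did pass without inflamed replicate 2 (log2 fold change 2.01, adjusted p = 0.0296).

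Markers of other cells also differed under inflammation. The summed neutrophil markers were at 447 to 731 CPM in resting and 1122 to 1359 CPM in inflamed CCR2+ve monocytes, and at 390 to 611 and 1918 to 2309 CPM in CCR1/2+ve monocytes. Mmp8 made up most of these sums, at means of 548 and 1044 CPM in CCR2+ve and 451 and 1606 CPM in CCR1/2+ve monocytes. The genes that led the sum in the libraries labelled CCR1 were lower but rose as well, Ngp from 27.3 to 134 and from 26.1 to 328 CPM and Ltf from 6.69 to 39.1 and from 3.22 to 65.3 CPM. The summed level of 6 erythroid markers was 56.4 to 289 CPM at rest and 0.688 to 3.41 CPM in the inflamed monocytes. Their part in the changes of the GTPase genes was not tested.

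Inflamed CCR1/2+ve and CCR2+ve monocytes were compared next. Of the 9 genes, 4 were higher and 5 lower in CCR1/2+ve monocytes, and the median of their log2 fold changes was -0.13, where that of all genes tested was -0.03. By edgeR 0 members were called, against 0.145% of all genes, and 0 had an unadjusted p below 0.05, against 8.98%. With DESeq2 0 members were called, against 106 of the 18277 genes it tested. Gbp5 had the largest difference, at -0.50 (standard error 0.65, edgeR adjusted p = 0.866), and Gbp7 was at 0.24 (standard error 0.27, edgeR adjusted p = 0.843). The groups overlapped for all 9. Standard errors on the log2 scale ran from 0.27 for Gbp7 to 1.34 for Iigp1, so a p that misses the threshold does not show that the populations were alike.

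Whether inflammation changed the genes differently in the populations was tested as an interaction over the 15 monocyte libraries. The log2 fold change in CCR1/2+ve monocytes minus that in CCR2+ve monocytes had a median of 0.86 over the members and was above 0 for all 9, where the median over all genes tested was -0.10. Irgm1 and Tgtp1 are included, whose fold changes were below 0 in CCR2+ve monocytes, and Iigp1, which passed the test in neither population. By edgeR 0 members passed an adjusted p of 0.05, against 0.397% of all genes, and 4 had an unadjusted p below 0.05, against 13.0%. The differences were 1.13 for Irgm2 (standard error 0.39, edgeR adjusted p = 0.235), 1.03 for Igtp (standard error 0.46, edgeR adjusted p = 0.365), 0.82 for Gbp7 (standard error 0.35, edgeR adjusted p = 0.331) and 2.60 for Tgtp1 (standard error 0.99, edgeR adjusted p = 0.271). DESeq2 called Irgm2 (1.19, adjusted p = 0.0399), against 545 of the 18587 genes it tested. With the replicate number within rest and within inflammation as a block, edgeR called Irgm2 (adjusted p = 0.00230), Irgm1 (0.00367), Igtp (0.00645), Gbp2 (0.0182) and Gbp7 (0.0420), against 2.52% of all genes, but the numbers were taken to pair the resting libraries and not the inflamed ones. The interaction is not independent of the lower resting levels in CCR1/2+ve monocytes, since both use the same resting libraries.

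Replicate 3 of the inflamed groups stood apart in these genes, which was seen after the values were known and is given as a description. In CCR1/2+ve monocytes it was above every other inflamed library for 9 of 9 members, and in CCR2+ve monocytes also for 9 of 9, against 27.4% and 23.3% of all genes tested. The ratio of replicate 3 to the median of the other libraries had a median over the members of 2.35 in CCR1/2+ve and 2.44 in CCR2+ve monocytes, where the median over all genes was 0.971 and 0.982. A ratio of at least 2 was found for 7 and 8 of the 9, against 5.77% and 5.51% of all genes. Iigp1 had the largest ratios, 6.94 and 12.6, and Tgtp1 (4.78 and 5.31) and Gbp2 (3.73 and 5.60) came next in an order that differed between the populations. Gbp7 had the smallest, 1.47 and 1.53. In the libraries labelled inflamed CCR1, replicate 3 was highest for 7 of the 9, against 25.0% of all genes, with a median ratio of 1.52 and 1 member at a ratio of at least 2, against 4.54%.

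Replicate 3 had 22268658 reads on genes in CCR1/2+ve monocytes, the fewest of its group, and 22556210 in CCR2+ve monocytes, within a range of 22502998 to 24293969. Its summed monocyte markers were 46580 CPM against 41901 to 43657 in CCR1/2+ve and 51880 CPM against 39380 to 44726 in CCR2+ve monocytes, the highest in both. The conventional dendritic cell markers of replicate 3 were within the range of the others in CCR1/2+ve monocytes (52.1 CPM against 18.3 to 79.0) and above it in CCR2+ve monocytes (565 CPM against 110.2 to 263). In CCR2+ve monocytes replicate 3 was also above the others in tissue macrophage markers (652 CPM against 493 to 624.7) and in T and NK cell markers (4.06 CPM against 3.10 to 3.87) and below them in neutrophil markers (1122 CPM against 1201 to 1359), and in CCR1/2+ve monocytes it was below them in T and NK cell markers (5.20 CPM against 5.80 to 6.59). In each group of inflamed monocytes, 1 of the 7 conventional dendritic cell genes and 0 of the 6 T and NK cell genes had a mean of at least 10 CPM. The part of any of these marker levels in the result was not tested.

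**Figure D4:**
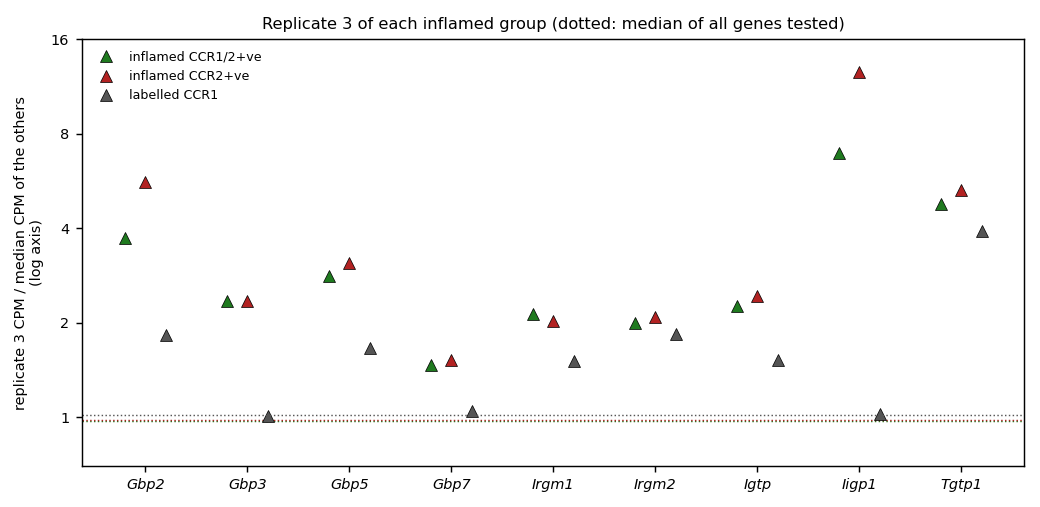
Ratio of replicate 3 to the median CPM of the other libraries of its group (log axis) for each member, in inflamed CCR1/2+ve (green), inflamed CCR2+ve (red) and labelled CCR1 (grey) libraries; dotted lines are the medians over all genes tested. Green and red triangles lie between 1.47 and 12.6 for all members, with Iigp1 highest.

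With replicate 3 left out of each inflamed group, 5 members were called as higher in CCR1/2+ve monocytes, against 8.38% of all genes. Gbp7 kept a log2 fold change of 2.28, and Igtp (1.54), Irgm2 (1.47), Gbp5 (1.47) and Gbp2 (1.14) also stayed past both cutoffs. Gbp3 fell under the fold cutoff (0.91, edgeR adjusted p = 0.000507) and Tgtp1 no longer passed (0.65, edgeR adjusted p = 0.381). Irgm1 and Iigp1 changed sign, to -0.06 and -0.07. In CCR2+ve monocytes, Gbp7 (1.43) and Gbp5 (1.28) stayed called, against 9.28% of all genes. Tgtp1 was then lower at both cutoffs (-1.70, edgeR adjusted p = 0.0263), against 18.5% of all genes, on 6 to 31 reads per inflamed library. In the same libraries its near copy Tgtp2 was at 18.2, 26.5 and 68.4 CPM, against 26.1 to 56.7 CPM at rest. Irgm1 was lower at -0.81 (edgeR adjusted p = 0.000580), and Gbp2 stood at 0.18 (edgeR adjusted p = 0.671).

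Other genes of the same families were examined as lists. Of 7 other GBP genes 6 could be tested. Gbp4 was downregulated in resting CCR1/2+ve monocytes, against 1.90% of all genes (3.33 ± 1.31 against 8.84 ± 4.30 CPM, SD, n = 4 each, log2 fold change -1.32, edgeR adjusted p = 0.0236). In inflamed CCR2+ve monocytes Gbp4, Gbp6, Gbp8, Gbp9 and Gbp11 were upregulated, against 9.37% of all genes. The median log2 fold change over the list was 1.88, where all genes tested had -0.10. In inflamed CCR1/2+ve monocytes the same 5 and Gbp2b were upregulated, against 9.16% of all genes, with Gbp2b on 0 to 12 reads per library. The median over the list was 3.34 there, or 3.15 with Gbp2b, which had 0 reads in all 4 resting libraries, at its bound, where all genes tested had -0.25. Gbp4 was at 18.7 to 99.6 CPM, with a mean of 51.6 ± 42.5 (SD, n = 3), a log2 fold change of 3.82 (standard error 0.57, edgeR adjusted p = 0.000467), and Gbp9 rose from 29.8 ± 9.30 to 167 ± 61.3 CPM (log2 fold change 2.35, standard error 0.29, edgeR adjusted p = 0.000143). Replicate 3 was the highest inflamed library for all of these called genes in both populations. Without it, 3 of the 5 in CCR2+ve monocytes (Gbp4, Gbp6 and Gbp8) and 4 of the 6 in CCR1/2+ve monocytes (Gbp4, Gbp6, Gbp8 and Gbp9) were still called. Between the inflamed populations 0 of the 6 were called, against 0.145% of all genes.

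Of 12 other IRG and related GTPase genes, all tested, Tgtp2 and Gm5431 were downregulated in resting CCR1/2+ve monocytes, against 1.90% of all genes. Their log2 fold changes were -1.36 and -1.28, and the median over the list was -0.56. Tgtp2, the near copy of Tgtp1, was at 20.5, 12.5, 11.4 and 14.7 CPM in CCR1/2+ve and 56.7, 32.3, 26.1 and 44.8 CPM in CCR2+ve monocytes, so that it too differed without overlap. Under inflammation 5 of the 12 rose at both cutoffs in CCR2+ve monocytes (Gm12250, Gm4070, Gvin1, F830016B08Rik and Gm4951) and 8 in CCR1/2+ve monocytes (Gm12250, Gm5431, Ifi47, Tgtp2, Gm4070, Gvin1, Gm4951 and 9930111J21Rik1), against 9.37% and 9.16% of all genes. The medians over the list were 0.71 and 1.56. Replicate 3 was again the highest inflamed library for each of these called genes. Without it, Gm12250, F830016B08Rik and Gm4951 were no longer called in CCR2+ve monocytes, nor Ifi47 and Tgtp2 in CCR1/2+ve monocytes. Tgtp2 was at 18.6, 139 and 35.4 CPM in inflamed CCR1/2+ve monocytes, where replicate 2 was within the resting range. Gvin1, a giant GTPase, had log2 fold changes of 1.65 (standard error 0.23, edgeR adjusted p = 2.46e-05) and 2.41 (standard error 0.23, edgeR adjusted p = 5.63e-06). Ifi47 (Irgd) was at 286 ± 151 CPM in inflamed and 199.8 ± 42.3 CPM in resting CCR2+ve monocytes (SD, n = 4 each), a log2 fold change of 0.45 that did not pass (edgeR adjusted p = 0.29998).

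Genes of interferon signalling, upstream of the GTPases, were examined in the same way. Of the 16 genes listed 15 were tested and Irf9 was not analysed here. At rest 0 of the 15 passed both cutoffs, against 2.34% of all genes higher and 1.90% lower. At an edgeR adjusted p below 0.05, 9 were lower in CCR1/2+ve monocytes, against 8.44% of all genes, and 0 higher. The list had a median of -0.52. Among the 9 were the transcription factors Stat2 (-0.61) and Irf1 (-0.62) and the receptor chains Ifngr1 (-0.52), Ifngr2 (-0.48) and Ifnar1 (-0.45). Irf8 did not pass (0.16, edgeR adjusted p = 0.233), nor did Ifnar2 (-0.23, edgeR adjusted p = 0.0663) and Socs1 (-0.84, edgeR adjusted p = 0.0528).

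Under inflammation these genes moved in both directions. Stat2, a subunit of the factor that binds ISREs, was upregulated in CCR2+ve (124 ± 15.2 to 333 ± 101 CPM, log2 fold change 1.35, edgeR adjusted p = 1.67e-05) and in CCR1/2+ve monocytes (log2 fold change 1.68, edgeR adjusted p = 0.00434). Irf1 did not pass in either (0.55 and 0.95, edgeR adjusted p = 0.187 and 0.0604). Receptor chains fell, Ifngr2 from 483 ± 53.1 to 51.5 ± 8.39 CPM in CCR2+ve and from 328 ± 37.7 to 46.8 ± 4.37 CPM in CCR1/2+ve monocytes (log2 fold changes -3.30 and -2.93), and Ifnar2 by -2.05 and -1.76. Ifngr1 was not called (0.15 and 0.43), and Ifnar1 was lower at an edgeR adjusted p below 0.05 in CCR2+ve monocytes only (-0.84, against -0.60 in CCR1/2+ve), a difference that was not called in the interaction. Irf8 (-2.54 and -2.80) and the feedback inhibitor Socs1 (-3.98 and -3.49) were downregulated in both. Over the list, 3 genes were upregulated and 5 downregulated in CCR2+ve monocytes, and 5 and 4 in the CCR1/2+ve population, with medians of 0.15 and 0.43. Of all genes tested, 9.37% were upregulated and 19.2% downregulated in CCR2+ve, and 9.16% and 19.4% in CCR1/2+ve monocytes.

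Of 11 partners of the GTPases, which form inflammasomes or the autophagy machinery that places IRGs, 0 were called at rest. Of all genes, 2.34% were higher and 1.90% lower there. In each comparison of inflammation 2 rose at both cutoffs, against 9.37% (CCR2+ve) and 9.16% (CCR1/2+ve) of all genes. A further 2 fell, against 19.2% and 19.4%, so the share that fell was near that of all genes. A rise of 2 in 11 is too few to set the list apart. Nlrp3 (log2 fold changes 1.08 in the CCR2+ve and 1.33 in the CCR1/2+ve population) and Atg7 (1.13 and 1.41) rose, and Atg3 (-2.65 and -2.56) and Atg16l1 (-1.40 and -1.62) fell. Casp4, a caspase activated at GBP-coated bacteria, was not called, at -0.40 (edgeR adjusted p = 0.0288) and 0.30 (edgeR adjusted p = 0.103).

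The libraries labelled inflamed CCR1 had the lowest mean level of the 5 groups for 6 members, all but Gbp7, Igtp and Tgtp1. Against inflamed CCR2+ve monocytes 8 of the 9 genes were lower at both cutoffs, against 16.8% of all genes, with a median log2 fold change of -2.96, where all genes tested had -0.01. Against inflamed CCR1/2+ve monocytes the same 8 were, against 14.6% of all genes, with a median of -2.80, where all genes tested had 0. These comparisons share the labelled CCR1 libraries. Gbp2 was at 4.45, 2.48, 8.13 and 7.20 CPM, far below every monocyte library, with log2 fold changes of -5.30 (edgeR adjusted p = 0.00178) and -5.18 (edgeR adjusted p = 0.00171). Gbp5 was at 0.847 to 1.43 CPM (-4.70 and -4.22) and Iigp1 at 0.454 to 0.800 CPM on 10 to 17 reads (-4.76 and -4.59).

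Igtp, Irgm2 and Gbp7 were the least reduced of the 8. Igtp was at 68.5, 66.4, 104 and 78.4 CPM, above its resting CCR1/2+ve libraries but below every inflamed monocyte library (-1.52 and -1.70). Irgm2 was at a mean of 41.5 CPM (-1.90 and -2.16), and Gbp7 was at 82.2 to 103 CPM (-2.09 and -2.35). Tgtp1 was not called in either comparison (0.83 and 0.48, edgeR adjusted p = 0.403 and 0.702), and its share of the reads on Tgtp1 and Tgtp2, 6.67 to 19.7%, stood against 1.04 to 6.92% in monocytes. Of the other lists, 5 of 6 GBP, 10 of 12 IRG and 12 of 15 signalling genes were lower at both cutoffs than in inflamed CCR2+ve monocytes, against 16.8% of all genes. These libraries carried neutrophil markers at the levels given above, and the part of the cell type in the result was not tested.

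How the members vary together was described over the 19 libraries, after the mean of each group was removed from log2 CPM. The Pearson correlation of a member with the mean of the other 8 was 0.78 for Gbp7 to 0.97 for Igtp, and 0.59 for Gbp3 to 0.93 for Igtp over the 16 libraries without inflamed replicate 3. Of 7685 genes with a mean of at least 10 CPM, the 5 most like the average of the members included Gm12250 (0.96), Tgtp2 (0.95), Ifi47 (0.95) and Znfx1 (0.95). Without inflamed replicate 3 the correlations of these 4 were 0.86, 0.90, 0.87 and 0.94. Libraries share depth and library preparation, so these values carry no p.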

How the data were processed

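The authors prepared low-input mRNA libraries, aligned paired-end reads to GRCm38 with STAR 2.7.10a (single-place reads only) and deposited raw counts per gene, from which the values are not normalized. Which strand was counted is not given in the sources used here. Of 20 columns, 1 matched no sample record and was not used. Counts were scaled to CPM with TMM factors over the 19 libraries, and the 18652 genes that averaged 1 read or more were tested with edgeR 4.0.16 (R 4.3.3), on the libraries of each pair of groups without covariates, as the study's methods describe for DESeq2. Both cutoffs means an adjusted p under 0.05 with a log2 fold change of 1 or more in size (adjusted p alone for the interaction). Fitted log2 fold changes are not ratios of the mean CPM. The alternatives were DESeq2 1.42.0, RLE size factors, no filter, filterByExpr, all 19 libraries in one fit, a replicate block, a GC correction and each library left out in turn, and tests were checked on simulated counts.

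Same-numbered resting libraries deviated together (r = 0.31 to 0.61 over 4 pairs), as did those labelled inflamed CCR1 and inflamed CCR2+ve (0.13 to 0.25), and these were taken as paired, from the correlations alone. The other pairs of groups were not taken as paired. For inflamed CCR1/2+ve and inflamed CCR2+ve monocytes the 3 same-numbered pairs had r = -0.31 to 0.50, which does not settle whether they came from the same mice. No libraries of a group were alike within sampling noise. Positions are those of GENCODE M21 on GRCm38. Intervals of counting were not used, and 3 reads over a group is the floor for a gene at 0. Named genes are all 9 members, the genes of the family lists called in a resting or inflammation comparison, fixed genes of interferon signalling and the genes most like the members, of which 1 gene is not reported here. Nlrp3, Atg7, Atg3 and Atg16l1 were named after their values were seen. The members and lists were chosen with earlier results of these data known.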

Additional observations from a re-analysis of the deposited data

Results flagged for a closer look

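In 3 of the 36 sets of 4 libraries examined, 1 library lay farther from the others than Dixon's 95% limit allows, where chance gives about 1 in 20. Gbp3 in inflamed CCR2+ve monocytes was at 417 CPM in replicate 3, against 167 to 198 CPM in the others. Irgm1 in the same group was at 269 CPM in replicate 3, against 129.8 to 153 CPM. Gbp3 in the libraries labelled inflamed CCR1 was at 25.2 CPM in replicate 2, against 18.5 to 19.03 CPM. Groups of 3 libraries were not examined, so replicate 3 of the inflamed CCR1/2+ve monocytes has no such value.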

How the results depend on the processing

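Over the alternatives, 1023 values of single members kept their direction and their call, 24 gained a call, 22 lost one and 29 changed sign. A call here means both cutoffs, or the adjusted p alone for the interaction. Members under the fold cutoff that crossed an adjusted p of 0.05, such as Gbp5 and Gbp7 at rest, thus count among the 1023. The number of genes called between the inflamed populations, 27, became 106 with DESeq2, 53 without a filter, 53 with all 19 libraries in one fit, 83 with the replicate block, 77 with the block and a GC correction, 6 without inflamed replicate 3, and 15 to 42 with single libraries left out. Both of these block fits also lacked replicate 1 of inflamed CCR2+ve monocytes. For the interaction, 74 genes became 545 with DESeq2, 113 with RLE size factors, 145 without a filter, 122 with filterByExpr, 187 with all 19 libraries, 470 with the replicate block, 112 with a GC correction, 454 with both and 1 without inflamed replicate 3, and 0 (without inflamed CCR1/2+ve replicate 3) to 253 (without inflamed CCR2+ve replicate 4) with single libraries left out; its members called rose from 0 to 1 (DESeq2), 5 (block) and 6 (block and GC). At rest, the 437 genes higher and 355 lower became 518 to 1013 in all, and 3 members 1 to 5, with single libraries left out. The sign changed for Iigp1 in inflamed against resting CCR2+ve monocytes, to -0.034 with the block and -0.51 without inflamed replicate 3 (single libraries left out, -0.51 to 1.14), and in CCR1/2+ve monocytes without inflamed replicate 3 for Irgm1, to -0.059 (-0.059 to 0.63), and Iigp1, to -0.072 (-0.072 to 2.01). Between the inflamed populations, Gbp7 became -0.025 with block and GC correction, and Igtp -0.032 with the block and -0.038 with both. With single libraries left out, these differences ran from -1.07 to 0.76 for Gbp2, -0.67 to 0.30 for Gbp3, -1.19 to 0.050 for Gbp5, -0.66 to 0.14 for Irgm1, -0.19 to 0.56 for Irgm2, -0.36 to 0.54 for Igtp, -1.75 to 1.08 for Iigp1 and -0.84 to 1.22 for Tgtp1, and the interaction from -0.38 to 0.84 for Gbp5 and -0.85 to 1.96 for Iigp1. The cause was not tested.

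Calls of Gbp2 were lost at rest without a filter (adjusted p = 0.0520) and with all 19 libraries in one fit (0.199), and in inflamed CCR1/2+ve monocytes without a filter (0.0505). The replicate block changed no member's call at rest or between labelled CCR1 and inflamed CCR2+ve libraries, where the numbers were taken to pair the samples. Elsewhere the samples were not taken as paired, and the block took the calls of Gbp2 (0.131) and Gbp5 (0.0621) in inflamed CCR1/2+ve monocytes and of Iigp1 (0.0898) between labelled CCR1 and inflamed CCR1/2+ve libraries. Inflamed CCR1/2+ve monocytes have no replicate 1, so block fits of this group with 1 other group also left out replicate 1 of the other group. The effect of the block and of that library cannot be told apart there. Igtp passed the fold cutoff in CCR2+ve monocytes with DESeq2 (1.01), RLE size factors (1.01) and all 19 libraries (1.05). Leaving out inflamed replicate 3 and the GC correction with the block were chosen after the data were seen. Depth limits Tgtp1, with 6 to 105 reads per library.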
